A study of Rattus norvegicus with 6 samples.

Results

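The centromere and kinetochore genes form the machine that ties each chromosome to the spindle, and here they were followed in sorted rat β-cells that had or had not entered DNA replication. Members were the genes whose name on the array starts with *Cenp*, together with the subunits of the NDC80, MIS12, SKA and RZZ complexes, *Zwint*, and the factors that load the centromeric histone. The rule found 32 genes measured by 44 probes, out of 45598 probes carrying 36174 gene names on the array. Of 18 genes listed by name, 17 were found and *Spc24* had no probe of that name. By role, 12 genes belonged to the centromeric nucleosome and the constitutive centromere-associated network (CCAN), 3 to NDC80, 5 to MIS12 with *Zwint*, 3 to SKA, 3 to RZZ, 3 to the loading factors and 3 to other *Cenp* names.

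As background, a centromere is marked by nucleosomes that hold CENP-A in place of the usual histone H3. The CCAN sits on them through the whole cell cycle, and in mitosis it carries the KMN network (KNL1, MIS12 and NDC80 complexes), whose NDC80 arm grips microtubules. The SKA complex strengthens that grip, the RZZ complex recruits dynein and checkpoint proteins, and HJURP with the MIS18 proteins restores CENP-A after division. Many of the genes are transcribed mostly from S phase to mitosis, and adult β-cells rarely divide.

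The β-cells came from islets of young adult male Wistar rats, with no genetic change, cultured overnight in low glucose with the thymidine analogue EdU, which is built into DNA during S phase. Dispersed cells were fixed and sorted as large, granular and high in Newport Green, a zinc dye. EdU-positive cells made the replicating group and EdU-negative cells the quiescent group, and both groups had the same EdU exposure, fixation and click reaction. The paper reports far fewer cells and less RNA, before amplification, for replicating than for quiescent fractions. The part of that difference in the ratios cannot be told apart from replication itself. Each of 3 islet preparations pooled 4 rats and gave 1 array of each group, so n = 3 per group, and a level is the normalized log2 value of a probe and a difference is the log2 ratio of replicating over quiescent.

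The arrays differed in ways that bear on every ratio. No spot was saturated, and between 80.8% and 87.3% of probes stood well above background on the replicating arrays, against 85.7% to 98.4% on the quiescent ones. Replicating arrays correlated with each other across probes at r of 0.967 to 0.986, whereas quiescent arrays 2 and 3 had an r of 0.654, and quiescent array 3 had an r of 0.969 with its replicating partner. Ki-67 (*Mki67*), *Pcna*, *Top2a*, *Ccnb1* and *Cdk1*, which mark cycling cells, were all called higher in replicating cells, 5 of 5, with log2 ratios of 1.68 to 4.38. *Mki67* was nevertheless at 12.23 on quiescent array 2 and 12.86 on its replicating partner. The insulin gene *Ins1* lay between 15.92 and 17.20 on the 6 arrays.

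Across the centromere and kinetochore genes, the shift was toward replicating cells. A gene was called where its log2 ratio was at least 1 in size and limma's unadjusted p did not exceed 0.05, with the gene's brightest probe over all 6 arrays standing for it. By this rule 23 of 32 member genes (71.9%) were called higher, 0 were called lower and 9 were not called, and 24 had an unadjusted p of at most 0.05. Counted by probe, without choosing the brightest, 29 of 44 member probes (65.9%) were called higher and 0 lower. Among all probes, 4.44% were called higher (2023 of 45598) and 4.18% lower (1905). The mean that picks the brightest probe includes the replicating arrays, so the choice favours probes that are high there. The median log2 ratio was 2.18 over the member genes and 1.82 over the member probes, against -0.07 over all probes. Single genes ran from -0.18 (*Cenpj*) to 5.60 (*Ndc80*). In 26 genes the replicating array was above its quiescent partner in all 3 preparations, a count given without the share over all probes. All replicating arrays lay above all quiescent arrays in 24 of the 31 genes with a value on every array (77.4%). The same held for 32 of 43 member probes (74.4%) and for 9.01% of all probes.

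In the reported setting no gene passed correction for multiple testing. With Benjamini-Hochberg adjustment over all probes in limma, 0 of 45598 probes (0%) had an adjusted p under 0.05, while 4379 had an unadjusted p of at most 0.05, and the lowest adjusted p of a member was 0.0977 (*Ndc80*). Members did pass in other settings, each with a higher ratio: 17 of 32 where background-corrected values were scaled to the 75th percentile (1.58% of all probes passed), 13 with cyclic loess (0.447%), 11 without pairing (0.217%) and 6 with a variance trend (0.134%). They also passed without preparation 2 (8 of 32, against 0.184% of all probes), and in the unpaired fits without quiescent array 2 (15, against 0.331%) or 3 (21, against 15.2%). The split between higher and lower calls over all probes also depended on scaling. Setting each array to its 75th percentile gave 1596 higher and 5862 lower calls from the background-corrected values, and 662 and 3193 from the processed signals of the scanner software. In sorted bulk samples, a smaller share of cells that use a gene and less of its RNA per cell cannot be told apart.

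**Figure D1:**
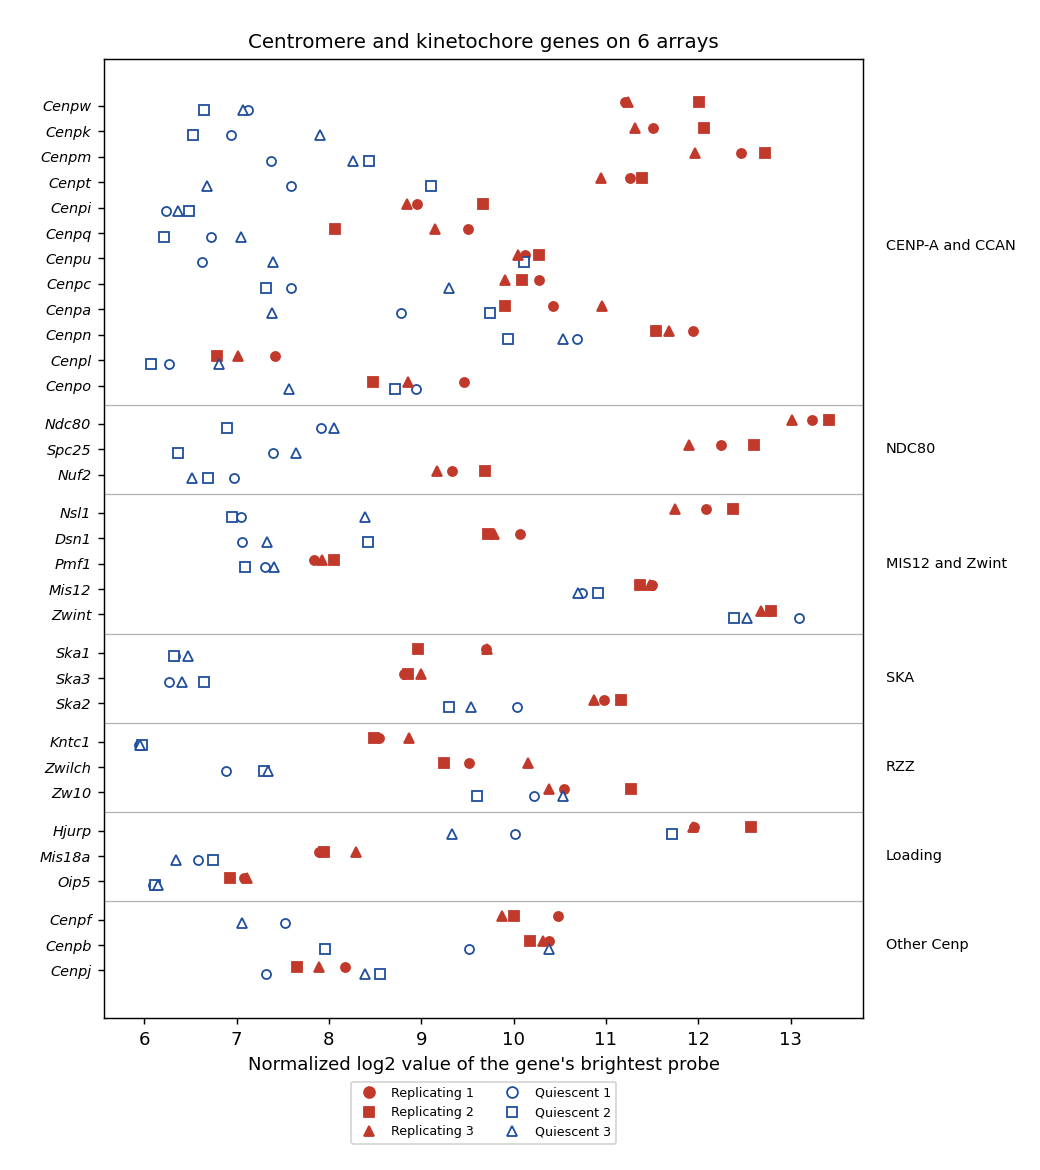
Normalized log2 value (horizontal axis) of the brightest probe of each of the 32 genes (vertical axis, grouped by role), with filled red marks for the 3 replicating and open blue marks for the 3 quiescent arrays and the mark's shape for the preparation. Red and blue marks separate widely for *Ndc80*, *Spc25*, *Nsl1*, *Cenpw* and *Cenpk*, and mix for *Zwint*, *Cenpj*, *Zw10* and *Cenpo*; levels of different probes are not comparable.

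The inner centromere was called higher in 10 of its 12 genes, and its median log2 ratio was 2.18 (2.75, 2.07 and 2.57 within preparations 1, 2 and 3). *Cenpw* had the highest ratio of the group. It encodes a histone-fold protein that pairs with CENP-T on centromeric DNA. Its levels were 11.20, 12.01 and 11.24 in replicating cells of preparations 1, 2 and 3, and 7.12, 6.65 and 7.07 in quiescent cells. The log2 ratio was 4.54 ± 0.40 (SE), a 23.2-fold difference, with unadjusted p = 7.4e-05 and adjusted p = 0.112 in limma. All 3 pairs moved alike and the groups stood far apart. Its partner *Cenpt* had a ratio of 3.41 ± 0.48, with 4.27 in preparation 3 and 2.28 in preparation 2.

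Next to *Cenpw* stood genes of the CENP-H/I/K/M subcomplex, which lies between CENP-C and the outer kinetochore. *Cenpk* read 11.51, 12.06 and 11.31 in replicating cells and 6.94, 6.53 and 7.90 in quiescent cells, a log2 ratio of 4.50 ± 0.49. *Cenpm* had a ratio of 4.36 ± 0.39 and *Cenpi* one of 2.79 ± 0.33. No quiescent array reached the lowest replicating array for any of these genes. The probe of *Cenpi* was well above background on 2 of 3 quiescent arrays.

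*Cenpa* and *Cenpc*, the centromeric histone and the protein that reads it, had lower ratios that varied more between preparations. *Cenpa* read 10.43, 9.91 and 10.96 in replicating cells and 8.78, 9.75 and 7.38 in quiescent cells. The difference was 0.16 in preparation 2 and 3.58 in preparation 3, and the fitted ratio was 1.80 ± 0.69 (unadjusted p = 0.0459). Its call was lost in 5 of 15 other settings, among them the median over its probes, with a ratio of 0.74. *Cenpc* had a ratio of 2.02 ± 0.53, and its quiescent array 3, at 9.29, was 0.61 below its replicating partner.

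The CENP-O/P/Q/U and CENP-L/N genes were mixed. *Cenpq* had a ratio of 2.25 ± 0.35 and *Cenpn* one of 1.34 ± 0.31, and both were called, the latter not with processed signals (unadjusted p = 0.0615 in limma). *Cenpu* was called at 2.11 ± 0.69, but its quiescent array 2, at 10.11, lay above replicating array 3, at 10.05, and the pair of preparation 2 differed by 0.17. *Cenpl* was not called, with 7.42, 6.79 and 7.02 in replicating cells and 6.27, 6.07 and 6.81 in quiescent cells, and a log2 ratio of 0.69 ± 0.35 (unadjusted p = 0.0991). *Cenpo* was not called either. It read 9.46, 8.48 and 8.86 in replicating and 8.95, 8.71 and 7.57 in quiescent cells, with overlapping groups and a ratio of 0.52 ± 0.41.

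The NDC80 complex, the microtubule-binding arm, had the highest median ratio of the role groups, 5.11, and all 3 genes were called. *Ndc80* itself read 13.24, 13.41 and 13.02 in replicating cells and 7.92, 6.90 and 8.06 in quiescent cells. The log2 ratio was 5.60 ± 0.42, a 48.4-fold difference, with unadjusted p = 3.4e-05 in limma. *Spc25*, part of the inner end of the rod that docks on MIS12, read 12.25, 12.60 and 11.90 against 7.40, 6.37 and 7.65, a ratio of 5.11 ± 0.47. *Nuf2*, which pairs with *Ndc80* at the microtubule end, was lower in its ratio, at 2.67 ± 0.32, with 9.34, 9.69 and 9.17 in replicating and 6.97, 6.69 and 6.52 in quiescent cells. In each of these genes the lowest replicating array was above the highest quiescent array.

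The MIS12 complex, the hub that joins the CCAN to NDC80, held both high and low ratios. *Nsl1* at its brightest probe read 12.09, 12.38 and 11.74 in replicating cells and 7.04, 6.95 and 8.39 in quiescent cells, a ratio of 4.61 ± 0.50 (24.4-fold). Its other probe had a ratio of -0.47. *Dsn1* had a ratio of 2.25 ± 0.44, and these 2 of 5 genes were the ones called. *Mis12* was not called at its brightest probe, with 11.49, 11.37 and 11.47 against 10.74, 10.91 and 10.702 and a ratio of 0.66 ± 0.31. *Pmf1* was not called, with 7.84, 8.05 and 7.93 against 7.31, 7.09 and 7.40 and a ratio of 0.67 ± 0.31. The groups did not overlap in either gene, yet both had an unadjusted p of 0.084 in limma.

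*Zwint*, which links KNL1 to the RZZ complex, was the one gene of this group whose brightest probe had no settled direction. It read 12.78, 12.79 and 12.68 in replicating cells and 13.09, 12.39 and 12.53 in quiescent cells, a ratio of 0.08 ± 0.33. Its probe was printed in 10 spots, preparation 1 ran the other way at -0.31, and the sign turned under cyclic loess normalization (-0.027) and without preparation 2 (-0.076). The median ratio of the MIS12 genes with *Zwint* was 0.67, with 2 of 5 called.

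The 3 SKA genes were all called, with a median of 2.45. *Ska1*, which carries the microtubule-binding end, read 9.70, 8.97 and 9.72 in replicating and 6.34, 6.32 and 6.47 in quiescent cells, a ratio of 3.09 ± 0.33. *Ska3*, its partner at the outer kinetochore, read 8.82, 8.86 and 9.0024 against 6.27, 6.65 and 6.41, a ratio of 2.45 ± 0.31. *Ska2* read 10.98, 11.16 and 10.87 against 10.04, 9.30 and 9.54, with the lowest ratio of the complex at 1.37 ± 0.34, and its call was lost with processed signals (unadjusted p = 0.0678 in limma). Replicating and quiescent arrays were apart in all 3 genes, and within preparations the SKA medians were 2.55, 2.21 and 2.59.

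Of the RZZ complex, *Kntc1* and *Zwilch* were called and *Zw10* was not. *Kntc1*, the large ROD subunit, read 8.54, 8.49 and 8.87 in replicating and 5.94, 5.98 and 5.96 in quiescent cells, a ratio of 2.68 ± 0.31. That probe was well above background on only 1 of 3 quiescent arrays, and with processed signals the ratio was 5.30. *Zwilch* had a ratio of 2.47 ± 0.34. *Zw10*, which also serves in traffic between Golgi and endoplasmic reticulum, read 10.54, 11.27 and 10.39 against 10.22, 9.60 and 10.53, with a ratio of 0.61 ± 0.45, and preparation 3 ran the other way.

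Of the factors that load CENP-A, 2 of 3 were called, with a median log2 ratio of 1.49. *Hjurp*, the chaperone of CENP-A, read 11.95, 12.57 and 11.94 in replicating and 10.02, 11.72 and 9.33 in quiescent cells, a ratio of 1.80 ± 0.44 (3.49-fold). *Mis18a*, which primes the centromere for loading, had a ratio of 1.49 ± 0.33, and its call was lost with processed signals (2.07, unadjusted p = 0.124 in limma) and with scaled background-corrected values (1.01, unadjusted p = 0.0734). *Oip5*, its partner, read 7.08, 6.93 and 7.11 against 6.10, 6.12 and 6.15, a ratio of 0.92 ± 0.30. The groups of *Oip5* did not overlap and its unadjusted p was 0.0278, but the ratio missed the threshold of 1, so it was not called. With cyclic loess *Oip5* was called, at 1.04 (unadjusted p = 0.0149 in limma). *Mis18a* and *Oip5* were well above background on 2 of 3 quiescent arrays each.

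The other *Cenp* names hold proteins of unlike work. *Cenpf*, a large outer kinetochore protein made mainly before mitosis, read 10.48, 10.004 and 9.87 in replicating cells and 7.53 and 7.06 on quiescent arrays 1 and 3. The spot on quiescent array 2 was marked as an outlier, so the ratio of 2.88 ± 0.41 rests on 2 preparations. *Cenpb*, which binds a repeat motif in centromeric DNA, read 10.39, 10.18 and 10.31 against 9.51, 7.95 and 10.38, and at 1.01 ± 0.51 (unadjusted p = 0.104) was not called. *Cenpj*, a protein of the centriole in spite of its name, read 8.18, 7.65 and 7.89 against 7.32, 8.55 and 8.39. Its ratio of -0.18 ± 0.45 was the only one of the 32 below 0, its groups overlapped, and it turned to 0.18 without preparation 2.

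**Figure D2:**
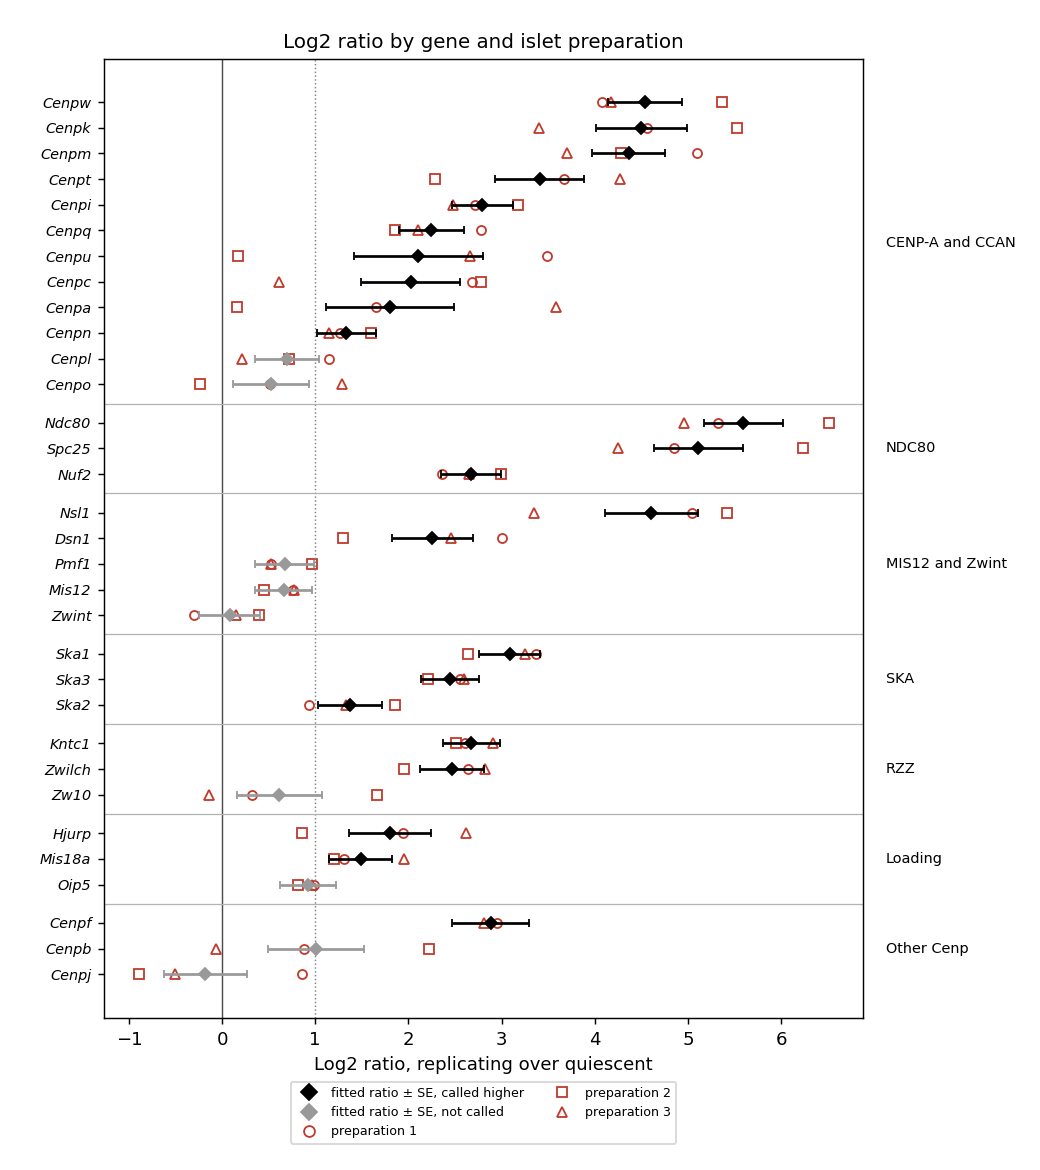
Log2 ratio of replicating over quiescent (horizontal axis) for each of the 32 genes (vertical axis, by role): diamonds are the fitted ratio with its standard error, black where called higher and grey where not, and open marks are the 3 preparations. The dotted line is the threshold of 1; *Ndc80* and *Spc25* lie above 5, and the grey genes lie between -0.18 and 1.01.

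Set side by side, the role groups kept some of their order within preparations and not all of it. The NDC80 median was above the CCAN median by 2.10, 4.17 and 1.68 in preparations 1, 2 and 3, and above the MIS12 and *Zwint* median by 4.09, 5.27 and 3.48. SKA lay below NDC80 by a difference of -2.30, -4.03 and -1.66, and the loading factors lay below the CCAN by -1.44, -1.21 and -0.62. SKA and the CCAN were close, with differences of -0.20, 0.14 and 0.02. So were the 8 NDC80, MIS12 and *Zwint* genes as 1 set (median 2.46), which differed from the CCAN by -0.06, 0.08 and -0.02. That set leaves out the KNL1 gene of KMN, *Casc5*, whose ratios in the 3 preparations were 0.77, 1.89 and 1.77. The group differences are descriptions of medians over 3 to 12 genes. The smallest two-sided p that an exact permutation test over 3 preparations can give is 0.25, so the differences were not tested.

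Levels spread more among the quiescent than among the replicating arrays. The median SD over the members was 0.26 among replicating and 0.42 among quiescent arrays, and the quiescent SD was larger in 22 of 31 genes (71%). Over all probes the medians were 0.22 and 0.65, and the quiescent SD was larger in 85.8%. Quiescent array 2, which stood apart from the others, was the lowest quiescent array for 15 of the 31 genes and the highest for 12. A ratio of at least 1 was seen in 22, 21 and 22 of 31 member genes in preparations 1, 2 and 3, where the share over all probes was 10.9%, 22% and 2.8%. The count of members was thus nearly equal in preparations whose overall shares were far apart.

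Leaving out arrays moved the count of members less than it moved the count over all probes. Without preparation 1, 2 or 3, the number of member genes called higher was 17, 23 and 21, while 1.15%, 3.17% and 11.4% of all probes were called higher. *Cenpf* then has 1 pair left without preparation 1 or 3 and was not tested there. Without preparation 1 the calls of *Hjurp*, *Cenpa*, *Cenpc*, *Cenpn* and *Cenpu* were lost, and without preparation 3 those of *Cenpa* and *Cenpu*, whereas *Cenpb* became called at 1.55. With quiescent array 1, 2 or 3 left out and no pairing, a choice made after seeing the data, 20, 23 and 22 member genes were called. Over all probes, 2.87%, 3.07% and 13.4% were called higher in these fits. In that unpaired setting *Hjurp* and *Cenpu* lost their calls without quiescent array 1 or 3, *Cenpa* lost its call without quiescent array 1, and *Cenpb* became called without quiescent array 3 (1.56).

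Markers of other cell types also differed between the sorted groups. Of 10 fibroblast and stellate cell genes, 3 were called higher in replicating cells, *Col3a1* (3.04), *Col1a2* (2.93) and *Vim* (1.89), and the log2 of the list's summed level was 13.69 to 15.23 in replicating and 12.30 to 12.69 in quiescent arrays. Of 6 alpha cell genes, 2 were called higher, glucagon (*Gcg*, 2.39) and *Gc* (1.86), with summed levels of 14.47 to 16.47 and 12.50 to 14.10. Of 6 immune genes, 2 were called higher, with summed levels of 11.32 to 11.63 and 10.52 to 10.96. Delta markers were called higher in 2 of 4, somatostatin (*Sst*, 1.74) and *Rbp4* (1.49). *Ppy* was called higher at 1.21, acinar markers in 1 of 6, and duct and endothelial markers in 0 of 5 each. Over all probes, 4.44% were called higher. Summed levels overlapped between the groups for the acinar, duct and endothelial lists. They also did for the delta list, at 10.95 to 11.45 in replicating and 10.78 to 11.94 in quiescent arrays. That sum includes *Ghsr*, not called at -0.93, which read 10.87, 11.79 and 9.15 in quiescent cells. *Sst* alone did not overlap, at 9.90 to 10.18 in replicating and 7.03 to 9.81 in quiescent arrays. Of 9 β-cell genes, 0 were called higher and 1, *Mafa*, was called lower at -1.01. Of these marker genes *Pnlip* (acinar) and *Cd3e* (T cells) were not well above background on any replicating array. The part of such cells in the ratios of centromere and kinetochore genes was not tested.

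For 9 genes several probes were on the array, 21 in all, and 13 of these were called higher. They read different stretches of the transcripts, and the probes of some genes disagreed in sign. The sequences shown are the first 30 of 60 bases of the highest and the lowest probe of the called genes whose probes lay on both sides of 0, with the position of the whole probe on the rat build rn4 given in the files.

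*Nsl1*, chr13:107113034-107113093, + strand, log2 ratio 4.61: ccacattgtcagctgcagtgtatgatctta
*Nsl1*, chr13:107111925-107111984, + strand, log2 ratio -0.47: tacaaagaccaaaatcttggctaacaaggc
*Cenpk*, chr2:35184650-35184709, + strand, log2 ratio 4.50: ctgtcttcacacagtatggaatctttacac
*Cenpk*, chr2:35182087-35182146, + strand, log2 ratio -0.10: gcaaactgtcctctaatttgtccatcattc
*Cenpa*, chr6:25685603-25685662, - strand, log2 ratio 1.80: tcccccctcatctgcttctgtcgggtatgt
*Cenpa*, chr6:25688936-25688995, - strand, log2 ratio -0.31: tgtggcttaaggaaataaagaacctgcaaa

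The second *Nsl1* probe read 8.73, 8.89 and 8.63 in replicating and 9.97, 9.24 and 8.46 in quiescent cells, so that the ratios of probes to 1 gene differed by 5.08 on the log2 scale. For *Cenpk* the difference between the highest and lowest of 4 probes was 4.60, with 1.83 and 1.05 for the other two, both called. The lowest *Cenpk* probe was dim, at 6.72, 6.50 and 6.56 in replicating and 6.62, 7.09 and 6.37 in quiescent cells. It was well above background on 2 of 3 arrays in each group. The second *Cenpa* probe read 7.97, 8.11 and 8.03 against 7.65, 10.05 and 7.34, and there quiescent array 2 stood above all others. Both *Cenpw* probes pointed the same way, at 4.54 and 1.02, but the latter was not called.

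The probes of *Ndc80* were all called, with ratios of 5.60, 3.60 and 3.20, and those of *Ska2* were called at 1.37 and 2.54. The 2 probes of *Hjurp* gave 1.80 and 0.82, of which the first was called. Those of *Mis12* gave 0.66 and 1.04, and here the dimmer probe was the one called. *Cenpo* stayed uncalled at 0.52 and -0.27, and a further probe that the files name only by a transcript accession gave 0.64. A further *Ska3* probe named in the same way had a ratio of 3.70. The brightest probe had the highest ratio in 7 of 9 genes. It was chosen by a mean that includes the replicating arrays, which favours probes that are high there. With the median over a gene's probes the ratio was 3.68 for *Ndc80*, 2.78 for *Cenpw*, 2.07 for *Nsl1* and 1.70 for *Cenpk*, each still called, and the NDC80 median was 3.68 in place of 5.11.

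**Figure D3:**
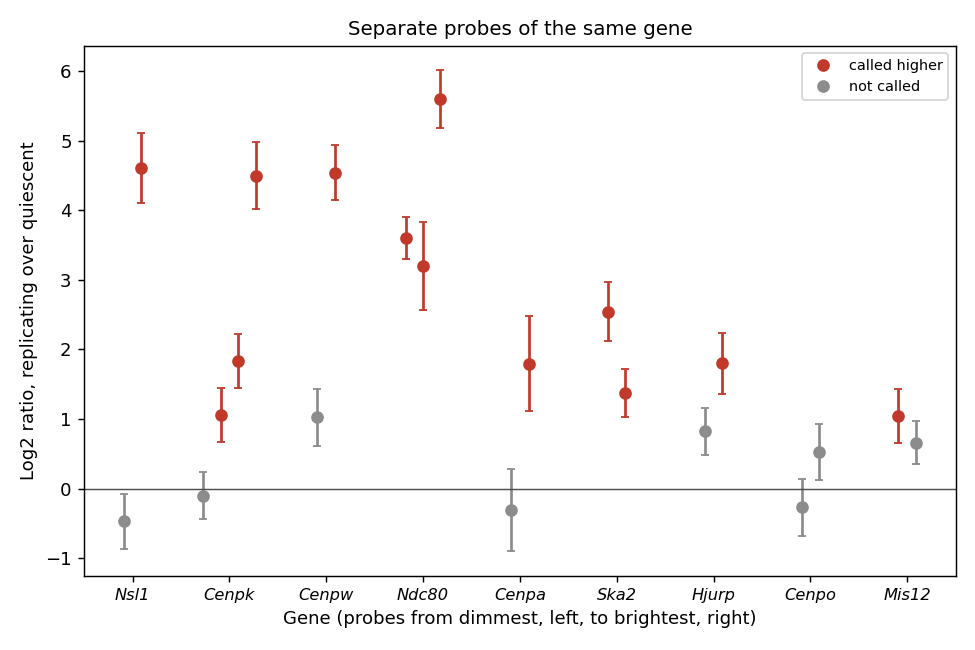
Log2 ratio with its standard error (vertical axis) of each of the 21 probes of the 9 genes with several probes (horizontal axis, from the dimmest to the brightest within a gene), red where called higher and grey where not. The probes of *Nsl1*, *Cenpk*, *Cenpa* and *Cenpo* fall on both sides of 0, whereas those of *Ndc80* and *Ska2* are all called.

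Genes of the kinetochore outside these names were read from a list of 25 with a probe, out of 31. Of these, 17 (68%) were called higher, against 4.44% of all probes, and 0 were called lower, against 4.18%. Their median log2 ratio was 1.54, against -0.07 over all probes. The highest ratios were those of *Knstrn* (5.56), which works with *Spag5* on spindle microtubules, the mitotic kinase *Plk1* (5.12), *Spag5* itself (4.81), and the checkpoint kinase *Bub1* (4.72). *Knstrn* read 12.06, 12.21 and 12.12 in replicating and 6.52, 5.98 and 7.22 in quiescent cells, so it was close to *Ndc80* in the size of its ratio. The KNL1 gene, named *Casc5* on the array and the arm of KMN that holds *Zwint*, had a ratio of 1.47 and was called. *Apitd1*, an older name of *Cenps*, which joins *Cenpt* and *Cenpw* on centromeric DNA, had a ratio of 2.68 and was called. Listed with them, *Itgb3bp* (0.72) and *Stra13* (0.66) were not called.

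The lowest ratios of that list were those of *Birc5* (-0.93) and *Cdc20* (-0.21), and neither was called. *Birc5*, the survivin subunit of the chromosomal passenger complex, read 7.68, 6.67 and 6.68 in replicating and 6.55, 10.64 and 6.63 in quiescent cells. Outside replicating array 1 and quiescent array 2 its probe was dim. On those other arrays, the lowest values of probes well above background were 6.04 to 6.53. Only the pair of preparation 2 was negative. *Cdc20*, an activator of the anaphase-promoting complex, read 11.33, 11.37 and 11.34 against 12.35, 12.29 and 10.02, and quiescent array 3 was the only one below the replicating ones.

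Promoters of the members were searched for letters known from cell cycle genes. The table of RefSeq promoters on the assembly GRCr8 held 1 entry for 27 of the 32 genes, and the window was 250 bases before to 30 after the annotated start. The cell cycle genes homology region core (CHR, TTTGAA), which the DREAM and MuvB complexes bind, the CCAAT box bound by NF-Y, and E2F words (TTTCCCGC, TTTCGCGC, TTTGCCGC or TTTGGCGC) were sought on both strands. *Spc25*, *Cenpf* and *Kntc1* are printed as 3 of the 4 called genes that hold both CHR and CCAAT letters (the other is *Cenpa*), and *Ndc80* because it had the highest ratio and none of these letters. Capitals mark the matches, with TTCAAA and ATTGG where the match is on the opposite strand.

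*Spc25*, GRCr8 chr3:74396689-74396968, - strand: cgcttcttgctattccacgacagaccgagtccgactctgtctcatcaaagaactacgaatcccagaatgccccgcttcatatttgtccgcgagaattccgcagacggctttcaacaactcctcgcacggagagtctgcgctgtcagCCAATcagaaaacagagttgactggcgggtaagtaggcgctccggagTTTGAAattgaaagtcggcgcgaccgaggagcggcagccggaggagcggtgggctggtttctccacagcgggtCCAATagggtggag
*Cenpf*, GRCr8 chr13:103760857-103761136, - strand: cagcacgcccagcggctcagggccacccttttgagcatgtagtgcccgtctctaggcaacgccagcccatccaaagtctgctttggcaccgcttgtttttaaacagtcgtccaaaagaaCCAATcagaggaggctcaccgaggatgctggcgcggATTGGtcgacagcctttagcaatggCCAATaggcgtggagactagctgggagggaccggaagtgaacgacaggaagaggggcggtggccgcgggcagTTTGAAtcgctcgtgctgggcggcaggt
*Kntc1*, GRCr8 chr12:38500428-38500707, - strand: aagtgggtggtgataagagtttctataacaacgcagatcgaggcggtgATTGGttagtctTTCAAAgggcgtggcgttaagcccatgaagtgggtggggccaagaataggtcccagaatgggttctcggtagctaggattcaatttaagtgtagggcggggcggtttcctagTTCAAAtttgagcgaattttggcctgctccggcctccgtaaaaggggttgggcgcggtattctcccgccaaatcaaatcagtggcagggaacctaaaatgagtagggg
*Ndc80*, GRCr8 chr9:118887500-118887779, - strand: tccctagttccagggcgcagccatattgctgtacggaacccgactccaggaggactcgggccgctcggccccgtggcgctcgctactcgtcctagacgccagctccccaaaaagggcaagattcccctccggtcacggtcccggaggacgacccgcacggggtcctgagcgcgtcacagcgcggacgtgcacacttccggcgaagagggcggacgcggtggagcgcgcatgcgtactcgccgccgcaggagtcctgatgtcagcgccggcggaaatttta

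CHR letters were in 9 of 27 member promoters (33.3%) and in 17.2% of 27457 RefSeq promoters cut to the same length. CCAAT letters were in 14 (51.9%) against 36.5% of all promoters, and both together in 5 (18.5%) against 6.66%. An E2F word was in 1 member promoter, that of *Mis18a* (3.7%), against 2.1% of all. In *Spc25* the CHR letters lay 57 bases before the start, with CCAAT letters 104 before it, and in *Cenpf* the CHR letters lay 3 bases after the start with CCAAT letters at 131, 95 and 70 bases before. Of the CCAN promoters, 6 of 11 held CHR letters, among them *Cenpi* at 49 and *Cenpa* at 116 bases before the start. CHR letters were in 8 of 21 promoters of called genes and in 1 of 6 of genes not called, and CCAAT letters in 9 of 21 and 5 of 6. These are matches of letters in an annotated window, not measured binding.

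**Figure D4:**
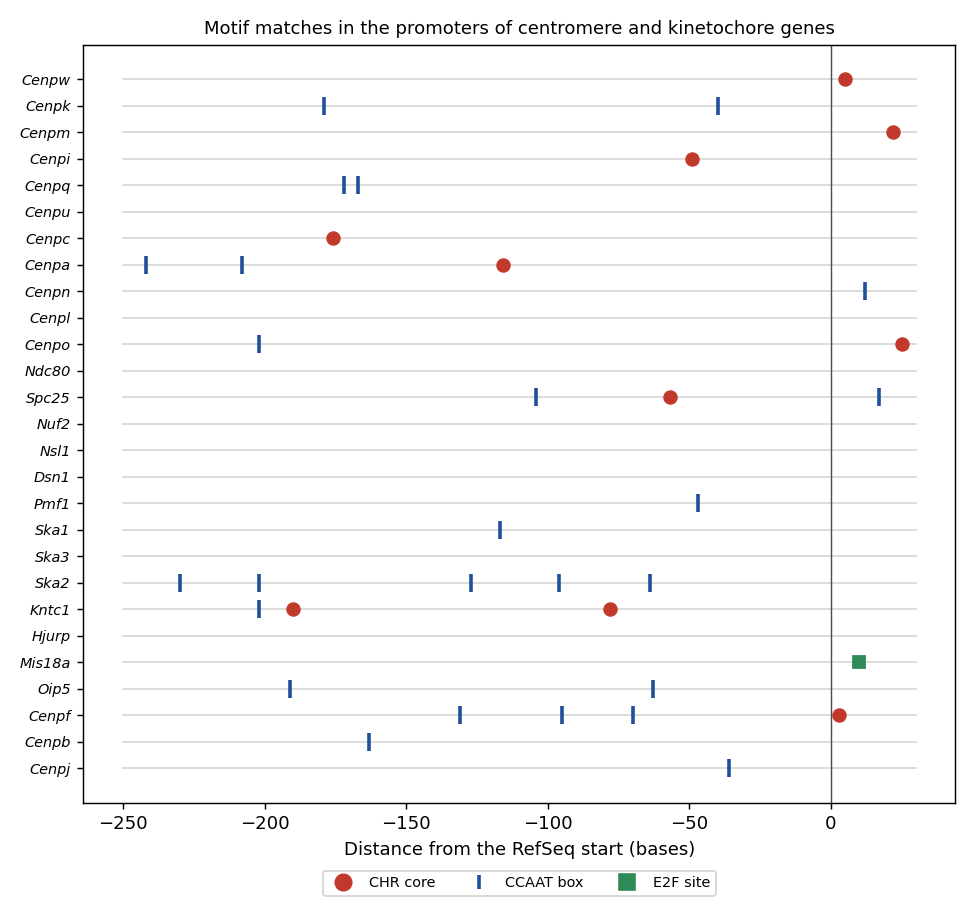
Places of CHR core letters (red circles), CCAAT letters (blue bars) and E2F words (green square) in the promoters of 27 member genes (vertical axis, by role), as the distance in bases from the RefSeq start (horizontal axis, 0 at the start). CHR letters appear in 9 promoters, and *Ndc80*, *Nuf2* and *Nsl1* show none of the letters.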

How the data were processed

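The authors amplified RNA of sorted cells by whole transcriptome amplification, labelled the cDNA with Cy3 and read the arrays with Agilent's scanner software. They deposited the intensity of each spot with its background and flags, and log2 values per spot, corrected by normexp and then quantile normalized. Those log2 values were used here. Repeating both steps on the deposited intensities (normexp offset 50) gave values within 0.000245 of them, with a Spearman's rho of 1 on each array.

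Control spots were left out, spots flagged as outliers (252 to 1583 per array) were set to missing, and spots of a probe were averaged. Genes were named as in the array files, and the probe whose mean over 6 arrays was highest stood for a gene. That mean includes the replicating arrays, so the choice favours probes that are high there. The chosen probe was not the brightest in quiescent cells for *Nsl1* (mean 7.46, against 9.22 for the other probe), *Cenpw* (6.95 against 8.21) and *Cenpk*. It was the brightest there for the other genes with several probes. Probes were tested with limma 3.58.1 (lmFit, eBayes) in R 4.3.3, and p-values were adjusted by Benjamini-Hochberg over all probes. Following the methods of the study, each preparation was a block. The series' design text gives 1 array of each group per preparation. Across probes, the residuals of the 2 arrays of a preparation about their group means correlated at 0.0561, 0.242 and 0.258. All arrays lay on 1 slide, so no slide block was fitted. The number of arrays limits the precision. The test was checked on simulated data. Promoters were searched with Python 3.11.15 and pandas 2.3.3.

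The members, role groups, gene lists and the rule for genes given on every array (highest and lowest ratio of a role group, genes not called, genes whose probes differ in sign, *Ska3* and *Spc25*, and the 4 highest and 2 lowest of the other kinetochore genes) were chosen with earlier results of these data known. *Casc5*, *Apitd1*, *Itgb3bp*, *Stra13* and probes named by accession were added after their values were seen. Alternatives were other scalings, the scanner software's processed signals, only probes well above background, outlier spots kept, an unpaired fit, a trend in the variance, the median of a gene's probes, and arrays left out.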

Additional observations from a re-analysis of the deposited data

How the results depend on the processing

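The count of member genes called higher was between 17 and 24 of 32 in all settings. Over all probes, the share called higher ran from 1.15% (without preparation 1) to 13.4% (unpaired, without quiescent array 3). The log2 ratio of *Zwint* turned to -0.027 with cyclic loess and ran from -0.076 to 0.29 with arrays left out, below 0 without preparation 2 or quiescent array 2. That of *Cenpj* ran from -0.70 to 0.18 with arrays left out, above 0 without the same arrays, and was -0.84 with processed signals. The calls of *Mis18a*, *Cenpa*, *Cenpn* and *Ska2* were lost with processed signals, and that of *Mis18a* with scaled normexp values. The median over all probes was -0.71 with processed signals and -0.39 with normexp values, both scaled to the 75th percentile, and between -0.08 and -0.03 in the other settings, so the ratios under those scalings are to be read against these shifts. With processed signals 662 probes were called higher (17.2% of calls, against 51.5% in the reported setting) and 3193 lower, and the medians were 2.70 for the CCAN, 3.32 for SKA and 2.07 for the loading factors. With scaled normexp values 719 probes passed the adjusted p, 5862 were called lower and 21.4% of calls were higher, and the SKA median was 2.09. With cyclic loess 204 probes passed the adjusted p, *Oip5* became called (1.04) and the SKA median was 2.69. Without the replicate block, so ignoring the pairing, 99 probes passed the adjusted p, 878 were called lower (68.2% of calls higher), and the calls of the 32 member genes were the same. With a variance trend 61 probes passed the adjusted p. With the median over probes the NDC80 and MIS12 medians were 3.68 and 0.85.

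With 1 preparation or 1 quiescent array left out, the probes called higher ran from 515 (without preparation 1) to 6107 (without quiescent array 3), those called lower from 63 to 6909 and those past the adjusted p from 0 to 6946, each highest without quiescent array 3. The other kinetochore genes called higher then ran from 11 to 19 of 25, the CCAN median from 1.93 to 2.61, and the median of the other *Cenp* names from 0.19 to 1.56. The cause of these moves was not tested.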
